A study of Rattus norvegicus with 18 samples.

Results

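The genes described are 9 that were grouped as nociceptor transduction channels and receptors: *Trpv1*, *Trpv2*, *Trpa1*, *Trpm8*, *Asic1*, *Asic2*, *Asic3*, *Mrgprd* and *Prph*. They were chosen by RefSeq gene symbol from the 15075 identifiers of the poly(A) count table, of which 14193 were paired with a symbol. Of the 9 genes, 8 had reads and 1, *Trpv2*, was listed at 0 in every rat. They are 7 ion channels of 2 families, 1 receptor (*Mrgprd*) and 1 intermediate filament gene (*Prph*), which is neither a channel nor a receptor. Not all 9 are particular to pain-sensing or temperature-sensing neurons, as is given for *Trpv2* and *Asic1* below.

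Poly(A) RNA was sequenced from dorsal root ganglia (DRG) at spinal levels C6-C8 of 18 lister hooded rats, 6 per group. The ganglia of 1 side of each rat were pooled, with no pooling between rats. This was the treated side in rats given a vector, and the paper does not state which side was taken from naïve rats. Naïve rats had no operation and no vector. Rats of the bPYX+GFP and bPYX+NT3 groups had bilateral pyramidotomy, which cuts both corticospinal tracts in the medulla. On the following day they had injections on 1 side into the forelimb flexor muscles of an adeno-associated viral vector (AAV1), with the CMV promoter, which is active in many cell types, driving green fluorescent protein (GFP) or human neurotrophin-3 (NT3). The ganglia were taken 10 weeks after injury. No group had injury without vector, so injury and the GFP vector cannot be told apart. The comparisons ask how injury with a control vector and injury with NT3 changed the ganglia, and how NT3 differed from the control vector. Naïve rats are numbered 41, 42, 43, 44, 45 and 49, bPYX+GFP rats 5, 15, 18, 21, 52 and 57, and bPYX+NT3 rats 2, 11, 17, 23, 39 and 40. For 17 of 18 rats the count file attached to a sample carries the number of a rat of another group than the heading of the count table gives. The table heading was used here.

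Nociceptors are the small-diameter sensory neurons of the DRG that respond to damaging heat, cold, acid, chemicals or force. TRP channels open to temperature and chemical irritants, ASIC channels open when the outside of the cell becomes acid, and both let cations in and so depolarise the nerve ending. NT3 signals mainly through the receptor TrkC, which marks proprioceptive neurons rather than nociceptors.

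The promoters of 4 of these genes are shown because *Prph* and *Asic3* varied together across the rats while *Trpv1* and *Trpm8* varied less. Each line gives the 250 bases before the start of the gene on its own strand, from RefSeq on GRCr8, a later build than the Rnor_6.0 genome to which the reads were aligned. Capitals mark 3 motifs on either strand. They are the TATA box of core promoters, searched as TATAAA, the core that RUNX factors bind, searched as TGTGGT, and the GC box bound by SP factors, searched as GGGCGG.
Prph chr7:132097039-132097288 (plus strand): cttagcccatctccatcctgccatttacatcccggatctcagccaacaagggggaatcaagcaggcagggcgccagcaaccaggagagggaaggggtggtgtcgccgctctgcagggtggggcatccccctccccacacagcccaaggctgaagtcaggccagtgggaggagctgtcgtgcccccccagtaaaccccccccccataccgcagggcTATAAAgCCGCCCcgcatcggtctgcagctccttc
Asic3 chr4:11657368-11657617 (minus strand): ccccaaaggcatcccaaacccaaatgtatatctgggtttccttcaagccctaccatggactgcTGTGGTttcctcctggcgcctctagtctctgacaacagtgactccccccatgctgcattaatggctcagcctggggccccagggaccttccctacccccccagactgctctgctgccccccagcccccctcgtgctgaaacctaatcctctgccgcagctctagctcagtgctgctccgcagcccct
Trpv1 chr10:58349686-58349935 (plus strand): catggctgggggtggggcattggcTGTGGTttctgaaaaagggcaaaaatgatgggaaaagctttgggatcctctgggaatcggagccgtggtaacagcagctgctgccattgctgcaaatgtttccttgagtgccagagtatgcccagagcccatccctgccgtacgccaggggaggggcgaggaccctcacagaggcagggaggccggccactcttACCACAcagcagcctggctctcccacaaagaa
Trpm8 chr9:96351433-96351682 (plus strand): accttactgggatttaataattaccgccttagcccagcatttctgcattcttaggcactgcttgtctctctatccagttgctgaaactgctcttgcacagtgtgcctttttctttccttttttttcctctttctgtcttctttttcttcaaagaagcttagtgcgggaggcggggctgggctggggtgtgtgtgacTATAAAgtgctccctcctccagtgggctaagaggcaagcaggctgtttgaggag

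TATAAA was present in the windows of *Prph*, with its first base at -35 from the start, and of *Trpm8*, at -54. The same letters were found in 12.9% of the 33469 promoters of this length. TGTGGT was found once in *Asic3*, at -187, and at -226 and -32 in *Trpv1*, as in 14.5% of all promoters. GGGCGG was found once in *Prph*, at -28, and in none of the other 3, against 30.5% of all promoters. The GC content was 64.4% for *Prph*, 60.4% for *Asic3*, 58.4% for *Trpv1* and 48% for *Trpm8*, with a median of 51.2% over all promoters. *Prph* and *Asic3* held none of these motifs in common. *Asic1*, which also varied with both (r = 0.83 with *Prph* and 0.94 with *Asic3*), held GGGCGG at -104 and -41, a motif that *Prph* also held. The part of these motifs in the levels was not tested.

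Between 10057787 and 16002410 read-pairs per rat were assigned to genes. *Trpa1*, *Prph*, *Asic1*, *Trpm8*, *Trpv1* and *Asic3* had at least 511 reads in every rat. *Asic2* had 64 to 163 reads and *Mrgprd* 28 to 140, so counting error takes a larger share of their spread. Levels below are a gene's counts per 1000000 read-pairs on genes (CPM) after TMM scaling, which makes a gene comparable between rats but not with another gene, since transcript lengths were not used. Whole ganglia were sequenced, so that fewer cells of a type and less RNA per cell cannot be told apart. The share of read-pairs that fell on no gene feature was 30.8 to 34.6%, and was lowest in bPYX+NT3 rat 11 (30.8%) and bPYX+GFP rat 57 (31.7%). These rats also had, in their groups, the highest summed levels of 10 pan-neuronal markers, 5184 CPM in rat 11 and 4781 CPM in rat 57, against 3742 to 4429 CPM in naïve rats. Among these markers, *Snhg11* had no identifier with reads and *Snap25* was under 10 reads. Their summed levels of 8 satellite glia markers, 1763 and 1802 CPM, were below the 2171 to 2520 CPM of naïve rats. Because rats 57 and 11 stood apart in this way, most results that rest on them are given with and without them. The spreads within groups, and the relations to summed marker levels and to depth, were not computed without both rats.

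The nociceptor label was set beside 10 markers fixed for it, of which 8 had reads and *Tac1* and *P2rx3* were at 0. A count of 0 need not mean absence, as is set out for *Trpv2* below, and the identifiers of *Tac1* and *P2rx3* were not examined. *Scn10a*, the sodium channel Nav1.8 of nociceptors, had 337 to 550 CPM. *Scn11a*, the sodium channel Nav1.9, had 419 to 607 CPM. *Calca*, which encodes the peptide CGRP and is abundant in nociceptors, had 1.55 to 5.95 CPM on its identifier with the most reads. This need not be its full level. The summed level of the list was 1358 to 1668 CPM in naïve, 1418 to 1914 CPM in bPYX+GFP and 1411 to 1793 CPM in bPYX+NT3 rats. The 3 ranges overlapped. *Trpv1*, *Trpa1*, *Mrgprd* and *Prph* are themselves on this list, and the levels are those of whole ganglia, so these sums cannot check the label.

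*Trpv2*, a channel of medium and large sensory neurons that opens at very high heat, has 3 RefSeq identifiers and each had 0 reads in all 18 rats. By counting error alone, 0 reads would allow 0.187 to 0.298 CPM (3 reads per library). This is no measure of the gene, since HTSeq leaves uncounted the reads that match several identifiers. Of genes with 1 identifier, 10.3% were at 0 in every rat, against 22.9% of those with 2 and 40.1% of those with 3 or more. *Asic2*, which has 2 identifiers, had reads on NM_001034014 and 0 on NM_012892, so its values below are those of 1 identifier. The part of multiple identifiers in these zeros was not tested.

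*Trpv1* (NM_031982), the heat-activated and capsaicin-activated channel, had overlapping levels in the 3 groups. It had 84.4 CPM in the lowest, 92.4 in the median and 107 in the highest naïve rat. The bPYX+GFP values were 85.0, 93.6 and 114 CPM, and the bPYX+NT3 values 86.4, 105 and 112 CPM. The groups overlapped over nearly their whole range, although 5 of 6 bPYX+NT3 rats lay above the naïve median. The log2 fold change was 0.041 (SE 0.087, exact p = 0.684) for bPYX+GFP against naïve, 0.13 (SE 0.078, exact p = 0.113) for bPYX+NT3 against naïve and 0.094 (SE 0.085, exact p = 0.260) for bPYX+NT3 against bPYX+GFP rats, where fold changes and SE are those of the edgeR quasi-likelihood fit and each exact p here and below is from a two-sided permutation of the rats between the groups.

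*Trpa1* (NM_207608), the channel for mustard oil and other irritants, stood out because rats 57 and 11 were the lowest of their groups. The lowest, median and highest rat had 228, 243 and 270 CPM in the naïve group and 189, 280 and 300 CPM in the bPYX+GFP group. In the bPYX+NT3 group they had 207, 265 and 301 CPM. Rat 57 lay below every naïve rat, as did rat 11, and the upper values of both injured groups lay above the naïve range. With all rats the log2 fold change was 0.092 (SE 0.098, exact p = 0.5) between bPYX+GFP and naïve rats. Without rat 57 it was 0.17 (SE 0.066, edgeR adjusted p = 0.907), and leaving out this 1 rat took it past the threshold for a call, an unadjusted edgeR p under 0.05, where 5.16% of all genes were called, 1.74% higher. It was 0.051 (SE 0.093, exact p = 0.673) between bPYX+NT3 and naïve rats (0.11, SE 0.082, without rat 11), and -0.040 (SE 0.117, exact p = 0.794) against bPYX+GFP rats.

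*Trpm8* (NM_134371), the cold-activated and menthol-activated channel, was the steadiest. It had 121, 133 and 142 CPM in the lowest, median and highest naïve rat. The bPYX+GFP values were 117, 127 and 149 CPM, and the bPYX+NT3 values 117, 130 and 140 CPM. The 3 groups lay over each other, and the coefficient of variation within a group was 5.6 to 9.61%. The log2 fold changes were -0.034 (SE 0.069, exact p = 0.535), -0.029 (SE 0.059, exact p = 0.584) and 0.0071 (SE 0.071, exact p = 0.857) for bPYX+GFP against naïve, bPYX+NT3 against naïve and bPYX+NT3 against bPYX+GFP rats. Their 95% confidence intervals, together, ran from -0.18 to 0.16.

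**Figure D1:**
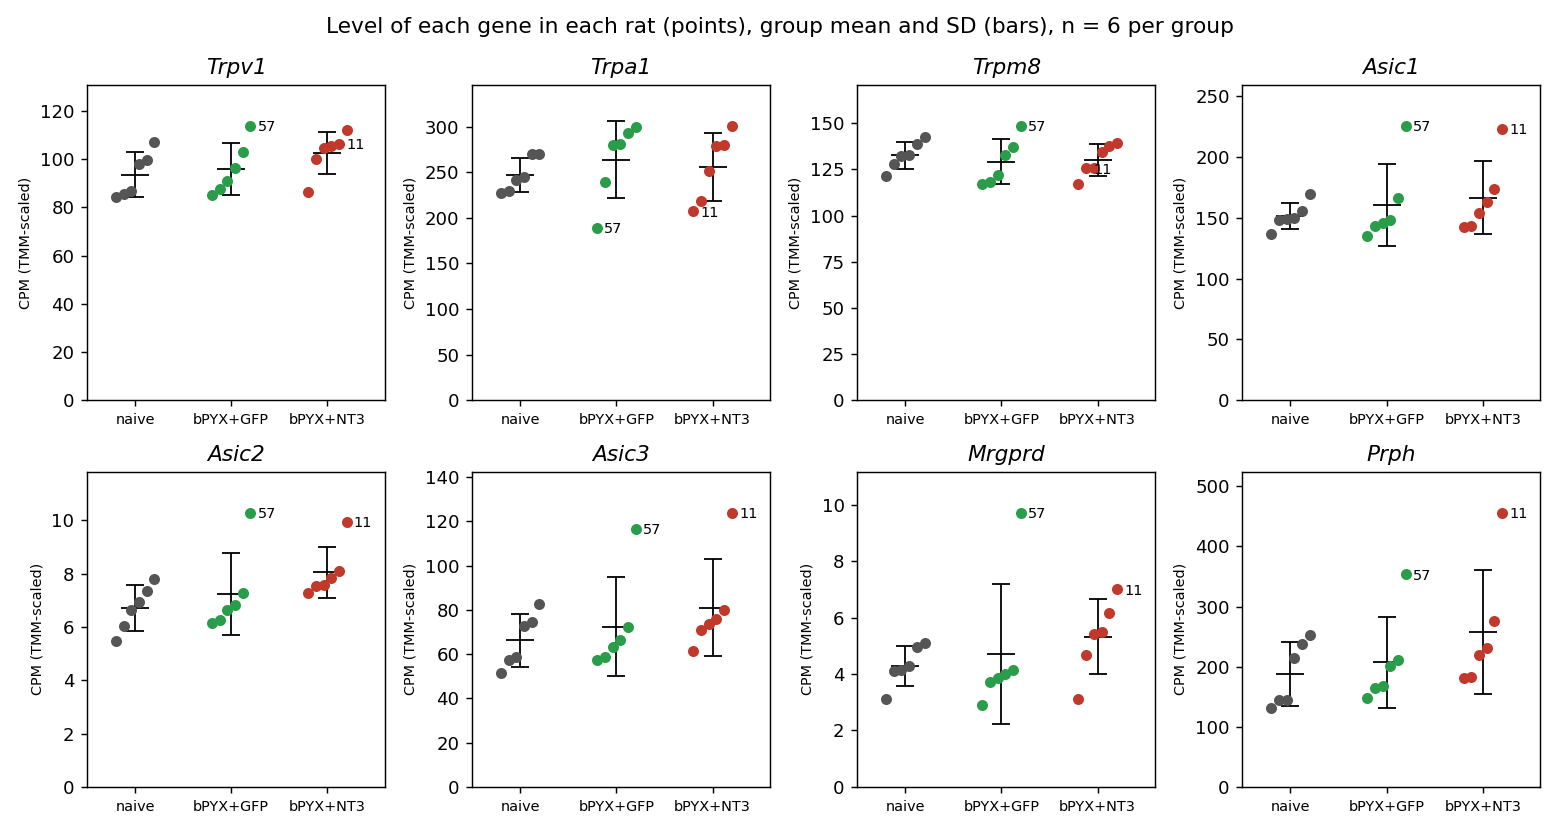
Level of each of the 8 genes with reads in each rat, in CPM after TMM scaling on axes that start at 0, by group (points are rats, 6 per group; the short line and bars are the mean and SD). Rats 57 and 11 are labelled. They sit at the top of their groups for Asic1, Asic2, Asic3, Mrgprd and Prph, and at the bottom for Trpa1, while the rest of the 3 groups overlap for every gene.

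*Asic1* (NM_024154), an acid-sensing channel subunit found widely in neurons, had 137, 150 and 169 CPM in the lowest, median and highest naïve rat. The bPYX+GFP values were 135, 147 and 226 CPM, and the bPYX+NT3 values 142, 159 and 223 CPM. Both injured groups owed their high end to 1 rat each, rat 57 and rat 11, and the next highest rats had 166 and 174 CPM. The log2 fold change was 0.088 (SE 0.113, exact p = 0.716), 0.14 (SE 0.0995, exact p = 0.314) and 0.054 (SE 0.142, exact p = 0.649) for bPYX+GFP against naïve, bPYX+NT3 against naïve and bPYX+NT3 against bPYX+GFP rats. Without rat 11 the value for bPYX+NT3 against naïve was 0.036 (SE 0.069), and with the no-feature share as covariate it was 0.021 (SE 0.063).

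*Asic2* (NM_001034014), a subunit that combines with other ASIC subunits, was the only one of the 8 genes past the threshold in any of the 3 comparisons. It had 5.45, 6.79 and 7.79 CPM in the lowest, median and highest naïve rat and 6.16, 6.72 and 10.3 CPM in bPYX+GFP rats. In bPYX+NT3 rats it had 7.28, 7.70 and 9.94 CPM. All 6 bPYX+NT3 rats lay above the naïve median, but the groups overlapped, since the 2 highest naïve rats (7.36 and 7.79 CPM) were level with the lower bPYX+NT3 rats. The log2 fold change between bPYX+NT3 and naïve rats was 0.26 (SE 0.117, unadjusted edgeR p = 0.0403, adjusted p = 0.607, two-sided exact permutation p = 0.0195, where the smallest possible is 0.00216). Without rat 11 it was 0.19 (SE 0.111) and was not called, and the call was also lost without rat 43 (0.21) or 45 (0.23), and without any 1 of rats 17, 23, 42 and 49, where the value was 0.27 to 0.28 and the unadjusted edgeR p 0.0512 to 0.0622. It was 0.12 (SE 0.147, exact p = 0.541) between bPYX+GFP and naïve rats and 0.15 (SE 0.146, exact p = 0.242) between bPYX+NT3 and bPYX+GFP rats.

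*Asic3* (NM_173135), the acid-sensing subunit typical of sensory neurons, including those that supply muscle, had 51.5, 65.7 and 82.5 CPM in the lowest, median and highest naïve rat. The bPYX+GFP values were 57.3, 64.7 and 116 CPM, and the bPYX+NT3 values 61.5, 74.6 and 124 CPM. Rats 57 and 11 were again far above the rest, with 72.2 and 80.1 CPM in the next highest rat of their groups, and the remaining rats of all groups overlapped. The log2 fold change was 0.13 (SE 0.174, exact p = 0.669) for bPYX+GFP against naïve, 0.29 (SE 0.158, exact p = 0.154) for bPYX+NT3 against naïve and 0.16 (SE 0.198, exact p = 0.433) for bPYX+NT3 against bPYX+GFP rats. Against naïve rats, the bPYX+NT3 value was 0.13 (SE 0.115) without rat 11 and 0.074 (SE 0.065) with the no-feature share as covariate.

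*Mrgprd* (NM_001001506), the beta-alanine receptor of non-peptidergic skin nociceptors, had few reads. The lowest, median and highest naïve rat had 3.13, 4.22 and 5.12 CPM. The bPYX+GFP values were 2.90, 3.92 and 9.73 CPM, and the bPYX+NT3 values 3.13, 5.47 and 7.01 CPM. Rat 57 alone set the top of the bPYX+GFP group, where the next highest rat had 4.16 CPM, and the naïve and bPYX+GFP medians were both exceeded by 5 of the 6 bPYX+NT3 rats. Its values as log2 fold changes were 0.15 (SE 0.265, exact p = 0.946), 0.31 (SE 0.184, exact p = 0.173) and 0.16 (SE 0.285, exact p = 0.424) for bPYX+GFP against naïve, bPYX+NT3 against naïve and bPYX+NT3 against bPYX+GFP rats.

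*Prph* (NM_012633), which encodes peripherin, the intermediate filament of small sensory neurons, had the widest spread of the 8 genes by the SD of log2 CPM within groups (0.46, *Mrgprd* 0.43), although the coefficient of variation of *Mrgprd* in bPYX+GFP rats (52.7%) was above that of *Prph* in any group (28.4 to 40.1%). The lowest, median and highest rat had 132, 180 and 252 CPM in the naïve group, 147, 185 and 354 CPM in the bPYX+GFP group and 181, 225 and 456 CPM in the bPYX+NT3 group. All 6 bPYX+NT3 rats lay above the naïve median, yet the naïve group was itself spread over 3 rats at 132 to 145 CPM and 3 at 214 to 252 CPM, and the groups overlapped. The log2 fold change between bPYX+NT3 and naïve rats was 0.45 (SE 0.233, unadjusted edgeR p = 0.0718, adjusted p = 0.607, two-sided exact permutation p = 0.139). This value fell to 0.22 (SE 0.177) without rat 11 and was 0.14 (SE 0.085) with the no-feature share as covariate, neither of them called. It was called when any 1 of rats 23, 39, 41 and 42 was left out (0.53 to 0.57), in fits that called 8.78 to 11.9% of all genes. It was 0.15 (SE 0.224, exact p = 0.623) between bPYX+GFP and naïve rats and 0.31 (SE 0.256, exact p = 0.310) between bPYX+NT3 and bPYX+GFP rats.

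Over the 8 genes tested, 0 were called in bPYX+GFP against naïve rats (a call being an unadjusted edgeR p under 0.05), where 3.25% of all 11601 genes were called. In bPYX+NT3 against naïve rats 1 was called, *Asic2*, where 6.01% of 11693 genes were called, 3.09% higher. In bPYX+NT3 against bPYX+GFP rats 0 were called, where 1.73% of 11623 genes were called. After Benjamini-Hochberg adjustment over all genes the edgeR test called 0 genes in each comparison. For all genes in bPYX+GFP against naïve rats, DESeq2 called 17 and the likelihood ratio test 13 after adjustment, with none of these 9 genes among them, and both called 0 in the other comparisons. The estimate was above 0 for 7 of the 8 genes in each comparison, the exception being *Trpm8* against naïve rats and *Trpa1* between the injured groups. The comparisons share rats, so these counts are not independent. The median log2 fold change of the 8 genes was 0.11, 0.20 and 0.12 in the 3 comparisons, beside 0.012, 0.00051 and 0.0049 over all genes. For 0 of the 8 genes did the values of the compared groups not overlap, beside 0.241%, 0.265% and 0.0602% of all genes in the same order of comparisons. The 95% confidence intervals allowed up to 1.94-fold higher *Prph* in bPYX+NT3 than in naïve rats, and for *Mrgprd* between the injured groups from 0.730-fold to 1.70-fold.

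**Figure D2:**
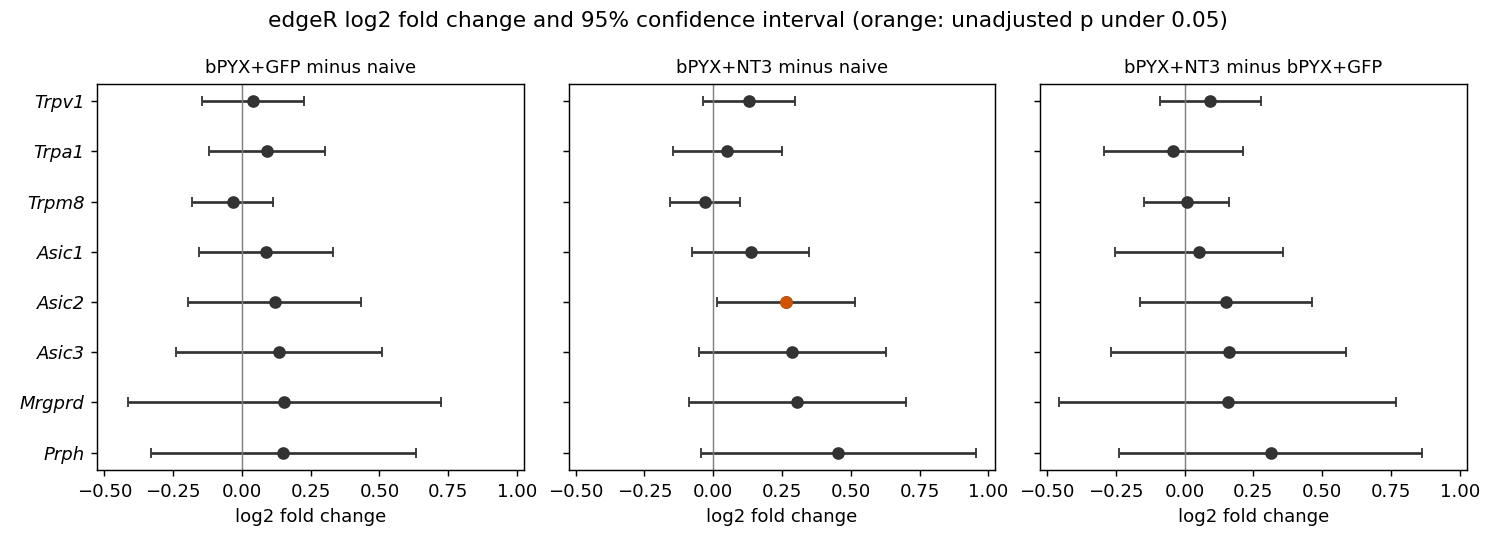
Log2 fold change of each gene (points) with its 95% confidence interval (bars) from the edgeR quasi-likelihood fits, 6 rats per group, in 3 panels for bPYX+GFP minus naïve, bPYX+NT3 minus naïve and bPYX+NT3 minus bPYX+GFP. Every interval spans 0 except that of Asic2 in bPYX+NT3 minus naïve rats (orange), and the widest intervals belong to Mrgprd and Prph.

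The difference between the injured groups depended on rat 57. Without it, 4 of the 8 genes were called higher in bPYX+NT3 than in bPYX+GFP rats, where 19.8% of all 11556 genes were called, 13.1% higher. The log2 fold changes were then 0.28 (SE 0.114) for *Asic2*, 0.35 (SE 0.148) for *Asic3*, 0.51 (SE 0.193) for *Mrgprd* and 0.53 (SE 0.212) for *Prph*, each with an adjusted p of 0.251. Without rat 11 the same 4 values were 0.073, -0.0091, 0.052 and 0.064, none of them called. With both rats left out, *Asic3* (0.19, SE 0.082), *Mrgprd* (0.42, SE 0.185) and *Prph* (0.29, SE 0.124) were called and *Asic2* (0.21, SE 0.102) was not, where 12.7% of genes were called, 7.48% higher. When the no-feature share was a covariate of the fit none was called, and *Prph* was at 0.047 (SE 0.084) and *Asic3* at -0.032 (SE 0.065). Against naïve rats, leaving out rat 57 turned *Trpv1*, *Asic1*, *Asic2*, *Asic3*, *Mrgprd* and *Prph* from above to below 0 in bPYX+GFP rats, with *Mrgprd* farthest at -0.21 (SE 0.154).

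**Figure D3:**
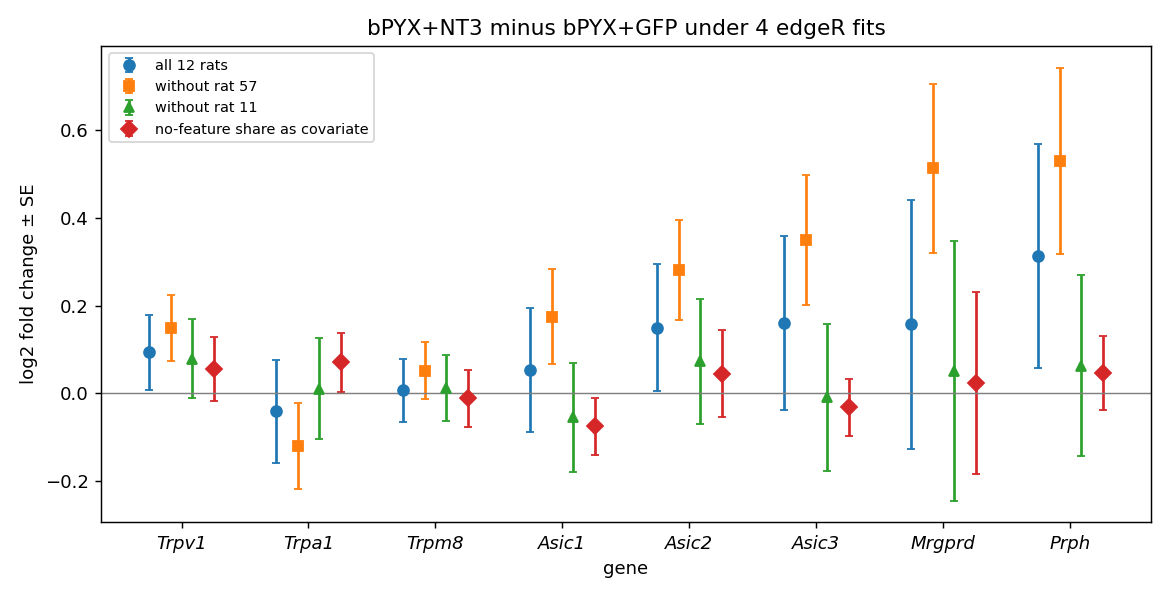
Log2 fold change (vertical axis) of each gene in bPYX+NT3 minus bPYX+GFP rats with its SE (bars) under 4 edgeR fits: all 12 rats, without rat 57, without rat 11, and all 12 rats with the no-feature share as covariate. For Prph the value goes from 0.31 with all rats to 0.53 without rat 57 and to 0.047 with the covariate, while Trpm8 stays near 0 under all 4.

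Within groups, the 8 genes differed in how much they varied from rat to rat. The SD of log2 CPM, after the group means were subtracted, was 0.46 for *Prph*, which was larger than in 99.5% of the 1835 genes within 2-fold of its mean read number. It was 0.33 for *Asic3*, at the 94.6th percentile of genes of like depth, 0.22 for *Asic1* (81.3rd) and 0.20 for *Trpa1* (76.1st). It was 0.43 for *Mrgprd* (72.1st), 0.14 for *Trpv1* (45.6th), 0.11 for *Trpm8* (28th) and 0.21 for *Asic2* (27.3rd). *Prph* and *Asic3* thus varied more than most genes read as deeply, and *Trpm8*, *Trpv1* and *Asic2* did not.

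Several of the 8 genes varied together across the 18 rats, group means subtracted. Of 28 pairs, 17 had an adjusted permutation p under 0.05 for Pearson's r and 11 for Pearson's r and Spearman's rho both. The share over pairs of all genes was not computed, so these counts cannot be read as particular to the 8 genes. The closest matches of *Prph* and *Asic3* among other genes (r = 0.99, below) were above every pair here. *Asic3* and *Prph* had r = 0.94 and rho = 0.88 (adjusted permutation p = 0.00028 and 0.0007), and r = 0.87 without rats 57 and 11, which were the 2 rats farthest from the median. *Asic1* and *Asic3*, 2 acid-sensing subunits, had r = 0.94 and rho = 0.89 (adjusted permutation p = 0.00028 for both), and r = 0.79 without those rats. *Trpv1* and *Mrgprd*, which mark different nociceptors in adult mice, had r = 0.81 and rho = 0.77 (adjusted permutation p = 0.00091 and 0.00084), and r = 0.78 without rats 57 and 11.

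The relations of *Asic2* and *Trpa1* to the other genes depended in large part on rats 57 and 11. *Asic2* had r from 0.56 to 0.75 with *Asic1*, *Asic3*, *Mrgprd* and *Prph*, but rho with an adjusted permutation p of 0.139 or more, and r from -0.22 to 0.16 without the 2 rats. *Trpa1* ran the other way, with r = -0.75 (rho = -0.55) against *Asic2*, r = -0.74 (rho = -0.57) against *Asic3*, r = -0.73 (rho = -0.54) against *Asic1* and r = -0.72 (rho = -0.57) against *Prph*. The adjusted permutation p was 0.00976 to 0.0215 for these r and 0.0478 to 0.0978 for these rho. Without rats 57 and 11 these r were -0.22 to -0.36, so the inverse relation rested in large part on those rats. Leaving them out also took r of *Trpa1* with *Mrgprd* from -0.46 to 0.36, with *Trpv1* from -0.24 to 0.23 and with *Trpm8* from -0.037 to 0.49. *Trpm8* had an adjusted permutation p under 0.05 in 1 of its 7 pairs, r = 0.60 with *Mrgprd* (p = 0.0341; rho = 0.54, p = 0.0574), and r was 0.46 without rats 57 and 11.

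**Figure D4:**
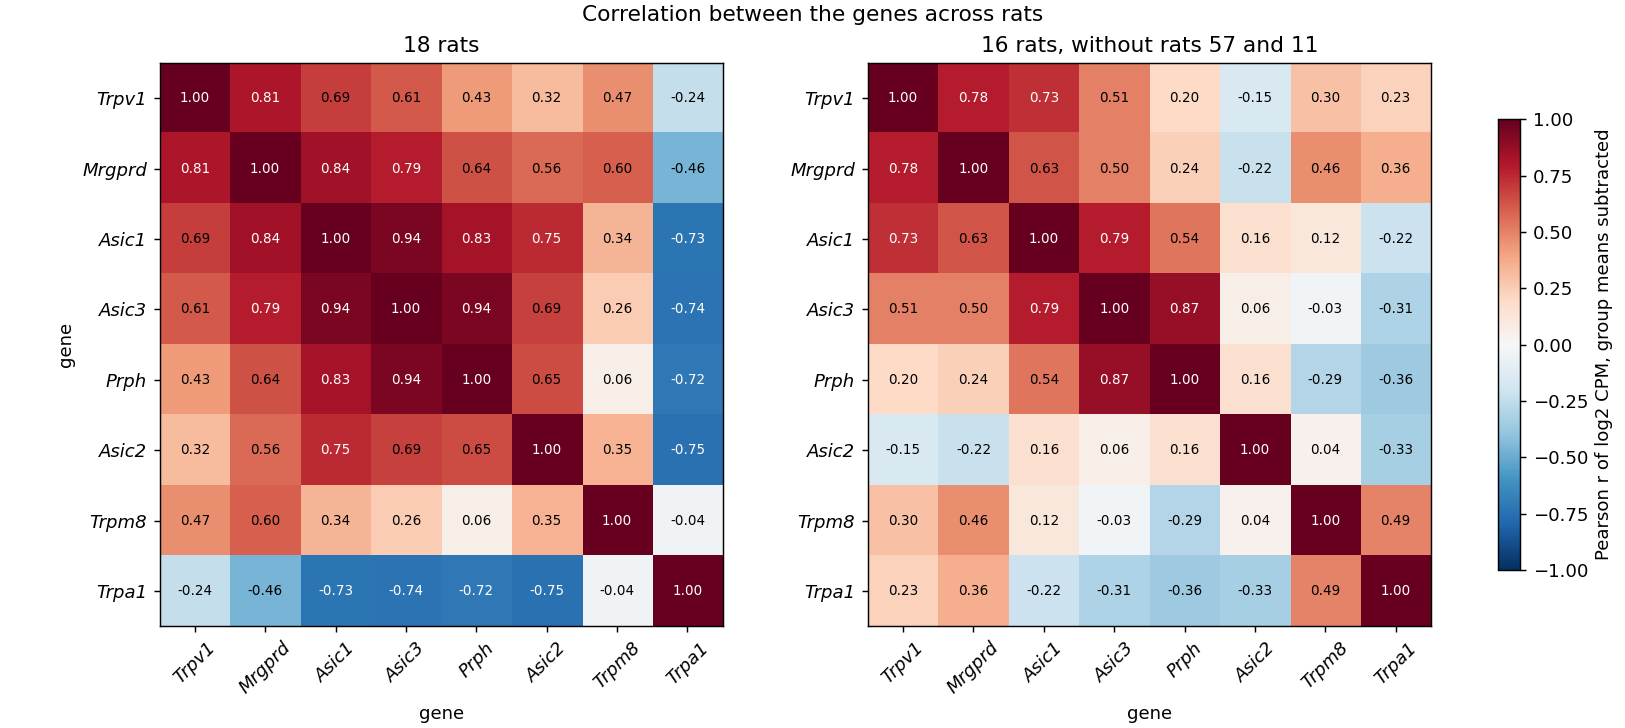
Pearson's r between each pair of the 8 genes in log2 CPM with group means subtracted, from -1 (blue) to 1 (red), over 18 rats (left) and over 16 rats without rats 57 and 11 (right). Asic1, Asic3 and Prph stay related on the right (r = 0.54 to 0.87), as do Trpv1, Mrgprd and Asic1 (r = 0.63 to 0.78). The values of Asic2 move toward 0, as do those of Trpa1 with Asic1, Asic2, Asic3 and Prph. Those of Trpa1 with Mrgprd, Trpv1 and Trpm8 turn from negative to positive (0.36, 0.23 and 0.49).

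The no-feature share of the read-pairs moved with this variation. Over 18 rats with group means subtracted, *Prph* had r = -0.95 and rho = -0.93 with the no-feature share (adjusted permutation p = 0.00064 and 0.00048, over 32 relations of a gene with a technical or marker measure), and r = -0.87 without rats 57 and 11. *Asic3* had r = -0.94 and rho = -0.80 (adjusted permutation p = 0.00107 and 0.00661), and r = -0.81 without them. *Trpa1* had r = 0.71 and rho = 0.56 (adjusted permutation p = 0.0216 and 0.0783) and only r = 0.29 without them. *Asic1* (r = -0.84, rho = -0.59), *Asic2* (r = -0.71, rho = -0.41) and *Mrgprd* (r = -0.63, rho = -0.41) were past the threshold for r (adjusted permutation p = 0.00691, 0.0246 and 0.0449) but not for rho (0.0585, 0.219 and 0.219), and had r = -0.46, -0.22 and -0.14 without rats 57 and 11. *Trpv1* (r = -0.39, rho = -0.35, adjusted permutation p = 0.215 and 0.290) and *Trpm8* (r = -0.16, rho = -0.015, adjusted permutation p = 0.629 and 0.956) were not past the threshold. After the no-feature share had been taken out of both genes, r was 0.52 for *Asic3* with *Prph*, 0.81 for *Asic1* with *Asic3* and 0.78 for *Trpv1* with *Mrgprd*. Other pairs fell further, *Asic1* with *Prph* from 0.83 to 0.21 and *Mrgprd* with *Prph* from 0.64 to 0.18. *Asic2* fell from 0.69 to 0.089 with *Asic3* and from 0.65 to -0.078 with *Prph*.

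The summed pan-neuronal level moved with *Prph* and *Asic3* too. It had r = 0.87 and rho = 0.85 with *Prph* (adjusted permutation p = 0.00107 and 0.00048) and r = 0.86 and rho = 0.75 with *Asic3* (adjusted permutation p = 0.00232 and 0.0117). Leaving out the 2 rats farthest in that measure, rats 11 and 49, gave r = 0.79 for *Prph* and 0.83 for *Asic3*. With *Asic1* it had r = 0.77 and rho = 0.61 (adjusted permutation p = 0.0115 and 0.045) and with *Asic2* r = 0.61 and rho = 0.50 (adjusted permutation p = 0.0345 and 0.149). Depth, as the log2 number of counted read-pairs, had r = 0.64 and rho = 0.66 with *Prph* (adjusted permutation p = 0.0246 and 0.0378) and r = 0.64 and rho = 0.69 with *Asic3* (adjusted permutation p = 0.024 and 0.028). Leaving out the 2 rats farthest in depth gave r = 0.60 for *Prph* and 0.56 for *Asic3*, and the other 6 genes had an adjusted permutation p of 0.0523 or more for r with depth. The summed level of 10 Schwann cell markers, all with reads, had r = 0.11 with *Prph* and 0.19 with *Asic3* (adjusted permutation p = 0.677 and 0.594; rho = 0.038 and 0.098, p = 0.919 and 0.851). Schwann cell markers summed to 3666 to 5090 CPM in naïve, 3258 to 4115 CPM in bPYX+GFP and 3623 to 4080 CPM in bPYX+NT3 rats. The part of the no-feature share, of depth and of the cell makeup in the levels of these genes was not tested, beyond the fits that had the no-feature share as covariate.

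**Figure D5:**
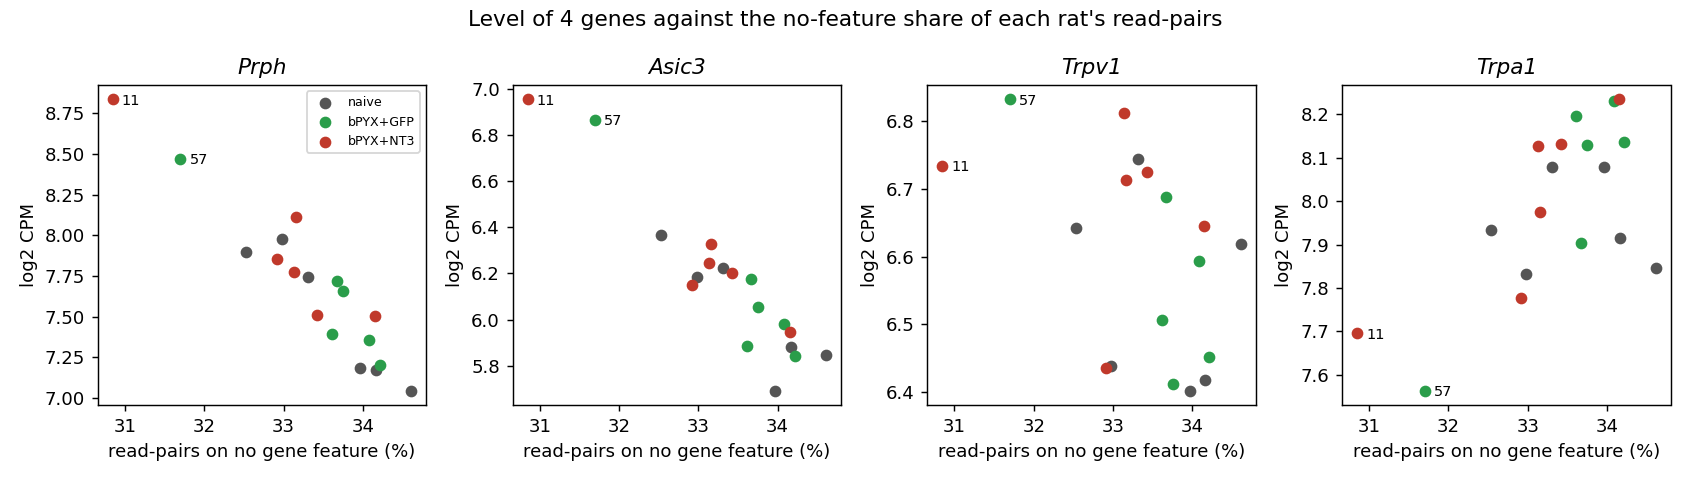
Log2 CPM (vertical axes, each with its own range) of Prph, Asic3, Trpv1 and Trpa1 in each of 18 rats against the percent of that rat's read-pairs that fell on no gene feature (horizontal axes). Rats 11 (30.8%) and 57 (31.7%) are at the far left, highest for Prph and Asic3 and lowest or among the lowest for Trpa1. The remaining rats follow the same slope for Prph and Asic3 and scatter for Trpv1.

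The genes whose pattern over the 18 rats was most like each of these were found among 8654 genes with a mean of at least 100 reads, by Pearson's r with group means subtracted. *Trpv1* was most like *Ubash3b*, a protein phosphatase gene (r = 0.91), the nociceptor sodium channel *Scn10a* (r = 0.89) and *Dpp6*, an accessory subunit of potassium channels (r = 0.88), with r from 0.83 to 0.90 without rats 57 and 11. *Prph* was most like *Eef2*, a translation elongation factor, *Tufm*, a mitochondrial translation elongation factor, and *Sncg*, gamma-synuclein (r = 0.99 for each, 0.98 without those rats). *Asic3* was most like *Prkar1b*, a regulatory subunit of protein kinase A, *Sez6l2* and *Tecr*, an enzyme of long fatty acid synthesis (r = 0.99 for each, 0.96 to 0.97 without them). *Asic1* had r = 0.97 with *Mid1ip1* and with *Dnm1*, which encodes dynamin of synaptic vesicle recycling (0.89 for each without them).

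*Mrgprd* was most like *Spock1*, *Fry* and *Pcsk2*, a prohormone convertase (r = 0.91 to 0.92, 0.79 to 0.86 without the 2 rats). *Trpa1* was most like *Mdga2*, *Phf14* and *Zfp709l1* (r = 0.90 to 0.92, 0.77 to 0.80 without them). *Trpm8* had the weakest matches, *Vps39*, the nicotinic receptor subunit *Chrna6* and *Ttc13* (r = 0.73 to 0.74, 0.68 to 0.78 without them). The matches of *Asic2*, namely *Txn2*, *Nup85* and *Pacc1*, an acid-activated chloride channel, had r = 0.82 to 0.84 and only 0.35 to 0.57 without rats 57 and 11. When a mean of at least 500 reads was required, that filter itself left out these 3 genes, so their loss is no test of the match.

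Other genes of the same functions were counted from 5 lists holding 100 entries. In bPYX+GFP against naïve rats, 1 of the 74 tested was called higher and 3 lower, where 0.733% of all genes were called higher and 2.52% lower. In bPYX+NT3 against naïve rats 5 of 74 were called higher and 0 lower, where 3.09% of all genes were called higher and 2.92% lower. The counts for NT3 against GFP were 3 of 73 higher and 0 lower, where 1.08% of all genes were called higher and 0.654% lower, with 0 calls after adjustment in any comparison. Each called gene was chosen by that call, and its values are given as a description. Those in bPYX+NT3 against naïve rats included *Calcb*, *Trpm4*, *Ano1* and *Pirt*.

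Of 25 nociceptor identity genes, 20 were tested, with median log2 fold changes of 0.064 for bPYX+GFP against naïve, 0.063 for bPYX+NT3 against naïve and 0.00010 for bPYX+NT3 against bPYX+GFP rats. *Calcb*, which encodes a form of the peptide CGRP, was the one called, with 102 ± 5.75 CPM (SD, n = 6) in bPYX+NT3 and 85.6 ± 6.56 CPM in naïve rats (log2 fold change 0.25, SE 0.062, exact p = 0.00433, adjusted p = 0.607). Of 23 other TRP channels, 13 were tested against naïve rats, with medians of 0.010 and -0.054, and 12 between the injured groups, with a median of -0.049. *Trpm4*, a channel activated by calcium, was the one called, with 7.02 ± 3.09 CPM in bPYX+NT3 and 4.38 ± 1.10 CPM in naïve rats (log2 fold change 0.68, SE 0.259, exact p = 0.0433, adjusted p = 0.607).

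Of 18 other channels and receptors for force, acid and heat, 14 were tested, with medians of 0.045, 0.19 and 0.063 in the same order of comparisons. *Ano1*, a chloride channel that opens to heat and calcium, had 28.9 ± 2.45 CPM in bPYX+NT3 and 24.5 ± 3.04 CPM in naïve rats (log2 fold change 0.23, SE 0.091, exact p = 0.0238). *Asic4* had 1.66 ± 0.370 CPM in bPYX+GFP and 1.17 ± 0.315 CPM in naïve rats (log2 fold change 0.50, SE 0.22, exact p = 0.0346). The adjusted p was 0.607 or more for each.

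Of 25 channel partners and sensitizing receptors, 20 were tested, with medians of 0.071, 0.14 and 0.085. *Pirt*, a membrane protein that binds *Trpv1* and *Trpm8* channels, had 69.4 ± 13.4 CPM in bPYX+NT3 and 53.8 ± 10.0 CPM in naïve rats (log2 fold change 0.37, SE 0.139, exact p = 0.0433). *Ptger4*, a prostaglandin E2 receptor that sensitizes nociceptors, was lower in bPYX+GFP rats, at 4.67 ± 0.294 CPM against 5.66 ± 0.542 CPM in naïve (log2 fold change -0.27, SE 0.108, exact p = 0.00649) and 5.87 ± 1.17 CPM in bPYX+NT3 rats (log2 fold change 0.33, SE 0.142, exact p = 0.0216). Of 9 other intermediate filament genes, 7 were tested, with medians of 0.0013, -0.013 and -0.011. *Gfap*, the filament of glia, had 9.59 ± 2.69 CPM in naïve, 5.97 ± 1.19 CPM in bPYX+GFP and 14.3 ± 10.2 CPM in bPYX+NT3 rats (log2 fold change -0.70, SE 0.197, exact p = 0.0238 for bPYX+GFP against naïve, and 1.26, SE 0.368, exact p = 0.0108 for bPYX+NT3 against bPYX+GFP). *Nes*, the filament of progenitor and Schwann cells, had 138 ± 14.8 CPM in bPYX+GFP and 165 ± 28.5 CPM in naïve rats (log2 fold change -0.26, SE 0.105, exact p = 0.0390). Each of these calls had an adjusted p of 0.607 or more.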

How the data were processed

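The deposited poly(A) counts of 18 rats were used. The authors aligned their reads with TopHat2 to the Rnor_6.0 genome, dropped duplicates with Picard, counted read-pairs per RefSeq identifier with HTSeq and deposited raw counts, one column per rat. The deposited count files of single rats were identical to the table column of the same rat number in 18 of 18 rats. Samples were grouped by the sample number in the table heading, which matches the sample descriptions. Read-pairs on no gene, ambiguous or not unique did not enter library sizes or tests. The no-feature share was 30.8 to 34.6%.

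Each pair of groups was compared with edgeR 4.0.16 in R 4.3.3 (TMM, quasi-likelihood test, no covariate), as 1 fit over all genes that passed a filter (over 10 reads in 6 or more of 12 rats), with Benjamini-Hochberg adjustment over all of them. A gene was called at an unadjusted p under 0.05. Single genes were also compared by two-sided exact permutation tests of log2 CPM (prior count 2), and correlations by 100000 permutations within groups. Symbols came from RefSeq. Levels per transcript length were planned but not computed, as lengths were not used here. The fits were tested on simulated data. The replicates are separate rats. Python 3.11.15, numpy 2.4.6, pandas 2.3.3, scipy 1.17.1, matplotlib 3.10.9 and DESeq2 1.42.0 were also used.

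All 9 genes are named whatever their values, with the called genes of the 5 lists, at most 3 per list and comparison, and the 3 genes most like each. The 9 genes and the lists were chosen with earlier results of these data known. Alternatives were the likelihood ratio test, DESeq2, other scalings and filters, 1 fit over 3 groups, the files as attached to the sample titles, and leaving out each rat. The replicate block, the no-feature share as covariate and leaving out rats 57 and 11 together were chosen after seeing the data. With 6 rats per group, the numbers in the titles state no pairing, and the main fits did not pair the rats. Some genes that these rules name are not reported here.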

Additional observations from a re-analysis of the deposited data

Results flagged for a closer look

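In 8 of 24 sets of 6 values (8 genes in 3 groups), 1 rat lay farther from the others than Dixon's 95% critical value allows. Chance flags about 1 in 20 sets, but these sets share rats and the genes vary together. The flags are thus not independent, and their number cannot be set against that rate. All 8 flagged values were the highest of their group and belonged to rat 57 or rat 11. In bPYX+GFP rat 57 they were *Asic1* at 226 CPM (next highest rat 166 CPM), *Asic2* at 10.3 CPM (7.28 CPM), *Asic3* at 116 CPM (72.2 CPM), *Mrgprd* at 9.73 CPM (4.16 CPM) and *Prph* at 354 CPM (210 CPM). In bPYX+NT3 rat 11 they were *Asic2* at 9.94 CPM (8.10 CPM), *Asic3* at 124 CPM (80.1 CPM) and *Prph* at 456 CPM (277 CPM). These are the rats with the lowest no-feature shares, 31.7% and 30.8%, and the highest summed pan-neuronal levels, 4781 and 5184 CPM. The part of these measures in the high values was not tested.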

How the results depend on the processing

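The number of the 8 genes called, 0, 1 and 0 for bPYX+GFP against naïve, bPYX+NT3 against naïve and bPYX+NT3 against bPYX+GFP rats, ranged from 0 to 1, from 0 to 3 and from 0 to 4 when each rat was left out in turn, with the highest values without rats 57, 41 and 57. In bPYX+NT3 against naïve, *Trpv1* was called without rat 17 or 43 (0.19 and 0.18), *Asic3* without rat 23 or 41 (0.35 and 0.36) and *Mrgprd* without rat 17 (0.43), in fits that called 5.46 to 11.9% of all genes. For bPYX+NT3 against naïve, the count of called genes was 0 with the likelihood ratio test (6.35% of all genes called), 0 in 1 fit over the 3 groups (4.96%), 0 with the no-feature share as covariate (4.11%), 0 without rats 57 and 11 (3.14%), and 2 with DESeq2 (7.0%). Without rats 57 and 11 it was 1 between bPYX+GFP and naïve rats (5.16%) and 3 between the injured groups (12.7%). The titles state no pairing of the rats by their numbers, and the main fits used none. Of 6 pairs by these numbers, 2, 5 and 3 in the 3 comparisons had a correlation of deviations over 0.1. In bPYX+NT3 against naïve rats those 5 had r = 0.29 to 0.53, and the remaining pair had r = -0.30. With the replicate block, 3 genes were called between bPYX+NT3 and naïve rats (*Asic2* 0.27, *Asic3* 0.27 and *Prph* 0.43), where 25.3% of all genes were called. The block changed no other call. The cause of these moves was not tested.

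With the files as attached to the sample titles, 1 gene, *Trpm8*, was called in bPYX+GFP against naïve, where 1.49% of all genes were called, and it was also the 1 gene called in bPYX+NT3 against naïve, where 2.85% were called and *Asic2* was not. The log2 fold changes that changed sign were then 0.15 for *Trpm8*, -0.068 for *Asic1*, -0.078 for *Asic2*, -0.11 for *Asic3* and -0.24 for *Prph* in bPYX+GFP against naïve. They were 0.17 for *Trpm8*, -0.016 for *Asic1*, -0.10 for *Asic2*, -0.14 for *Asic3* and -0.37 for *Prph* in bPYX+NT3 against naïve, and -0.0034 for *Trpv1*, -0.027 for *Asic2*, -0.025 for *Asic3* and -0.13 for *Prph* between the injured groups. Without rats 57 and 11, the bPYX+GFP against naïve values changed sign for *Trpv1* (-0.019), *Asic1* (-0.040), *Asic2* (-0.018), *Asic3* (-0.063), *Mrgprd* (-0.21) and *Prph* (-0.077). When the no-feature share was a covariate, *Trpa1* (0.071), *Trpm8* (-0.011), *Asic1* (-0.075) and *Asic3* (-0.032) changed sign between the injured groups. With library size alone, *Trpm8* was 0.0015 in bPYX+NT3 against naïve rats.

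Leaving out 1 rat gave, in bPYX+GFP against naïve, -0.019 to 0.084 for *Trpv1*, -0.040 to 0.13 for *Asic1*, -0.018 to 0.16 for *Asic2*, -0.063 to 0.20 for *Asic3*, -0.21 to 0.25 for *Mrgprd* and -0.077 to 0.25 for *Prph*. It gave -0.00071 to 0.11 for *Trpa1* and -0.051 to 0.0027 for *Trpm8* in bPYX+NT3 against naïve, and -0.12 to 0.011 for *Trpa1*, -0.020 to 0.052 for *Trpm8*, -0.054 to 0.18 for *Asic1* and -0.0091 to 0.35 for *Asic3* between the injured groups. The number of gene pairs with an absolute r over 0.5, 18 of 28, was 24 with library size alone, 8 without rats 57 and 11 and 8 with the no-feature share as covariate. The share over pairs of all genes was not computed for any of these settings. At 28 to 163 reads per rat, *Mrgprd* and *Asic2* are limited by depth.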
